A study of Homo sapiens with 18 samples.

Results

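This report describes 10 keratin genes, of 35044 genes counted, across the 6 conditions of an RNA-seq experiment on breast cancer cells treated with a PARP inhibitor (PARPi). The members were taken by symbol from textbook groupings: the basal keratins KRT5, KRT14 and KRT17, the stress keratins KRT6A, KRT6B and KRT16, and the simple-epithelium (luminal) keratins KRT7, KRT8, KRT18 and KRT19. All 10 passed the filter on low counts, with 18335 genes tested in all, although 5 of them passed through HCC1937-OE-BRCA1 alone. HCC1937-EV is described by the study as the BRCA1-mutated breast cancer cell line HCC1937 with an empty vector, and HCC1937-OE-BRCA1 as the same cell line overexpressing wild-type BRCA1. Each was sequenced untreated (0 h) and after 12 h and 24 h of the PARPi olaparib at 10 µmol/L, with 3 libraries per condition. No untreated library is labelled 12 h or 24 h, so an effect of olaparib and one of time in culture cannot be told apart. Changes upon treatment below are changes from 0 h. The labels give the genotype as WT for the EV libraries and list olaparib also for the 0 h libraries, and they do not say whether the libraries came from separate cultures or whether either line is 1 clone. The p-values therefore measure the spread between these libraries, which may be technical.

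Keratins build the intermediate filaments of epithelial cells. Each filament is an obligate heteropolymer, in which an acidic type I keratin pairs with a neutral to basic type II keratin. In the mammary gland KRT5, KRT14 and KRT17 are known from the basal, myoepithelial layer, and KRT7, KRT8, KRT18 and KRT19 from the luminal layer. KRT6A, KRT6B and KRT16 are induced in wounded and hyperproliferative epidermis. HCC1937 is known as a basal-like, triple-negative line, and basal-like tumours often stain for basal keratins. Among the members, KRT5, KRT6A, KRT6B, KRT7 and KRT8 are type II, and KRT14, KRT16, KRT17, KRT18 and KRT19 are type I.

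The libraries labelled HCC1937-EV went against their label. EPCAM, the epithelial adhesion molecule, had between 0 and 1 counts in the 9 libraries labelled HCC1937-EV and between 4005 and 5727 in the 9 HCC1937-OE-BRCA1 libraries. The summed level of the epithelial markers EPCAM, CDH1 and CLDN7 was between 0.375 and 1.62 CPM (read counts scaled to a common library size) in the first and between 718 and 881 CPM in the second. The 7 fibroblast markers summed to between 97.3 and 153 CPM in the libraries labelled HCC1937-EV and to between 6.96 and 12.6 CPM in the others. COL1A1 (89 to 144 CPM against 5.85 to 11.4 CPM) and PDGFRB (6.34 to 11.3 CPM against at most 0.189 CPM) made up nearly all of this. In the libraries labelled HCC1937-EV, COL1A2, COL3A1, PDGFRA, DCN and LUM reached at most 6, 5, 4, 2 and 1 counts. Correlations of log2 CPM across genes between libraries of different lines lay between 0.780 and 0.801, against 0.981 to 0.994 between conditions of 1 line. The 4 leukocyte markers summed to between 1.02 and 2.54 CPM in the libraries labelled HCC1937-EV and to between 33.7 and 86.6 CPM in the others, nearly all of it CD14, and the 3 endothelial markers to at most 2.89 and 27 CPM. The part of these markers in the results was not tested. BRCA1, the targeted gene, had 125.8, 110.6 and 116.5 CPM without treatment under the EV label, against 166.1, 122.0 and 127.4 CPM in untreated HCC1937-OE-BRCA1. The groups overlapped, and the log2 difference of 0.24 ± 0.11 (SE) was not called (edgeR's quasi-likelihood test, Benjamini-Hochberg adjusted p = 0.0654). It was called with DESeq2's size factors (adjusted p = 0.0345), DESeq2's Wald test (adjusted p = 0.0317), a minimum of 10 counts in every library (adjusted p = 0.0274) and an offset for GC content and gene length (0.41, adjusted p = 4.69e-07). At 24 h the log2 difference was 0.77 (adjusted p = 3.17e-06), and at 12 h it was 0.16 (adjusted p = 0.197). Differences between the lines and an effect of BRCA1 therefore cannot be told apart here, and the comparisons within each line come from cells with different keratin repertoires. In bulk RNA, fewer cells of a type and less RNA per cell cannot be told apart either.

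The type II members lie in the keratin cluster on chromosome 12 (GRCh38), with KRT6B at chr12:52446651-52452126, KRT6A at chr12:52487174-52493257, KRT5 at chr12:52514575-52520687 and KRT8 at chr12:52897187-52949954, all on the minus strand, and KRT7 at chr12:52232520-52252186 on the plus strand. The type I members KRT14 (chr17:41582279-41586921), KRT16 (chr17:41609778-41615899), KRT17 (chr17:41619441-41624842) and KRT19 (chr17:41523617-41528308) lie on the minus strand of chromosome 17. KRT18 (chr12:52948871-52952901) is the exception, a type I gene beside KRT8 on chromosome 12 which overlaps the 5′ end of the KRT8 annotation on the opposite strand.

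The stress keratins KRT6A and KRT6B, the 2 members called at 12 h in HCC1937-OE-BRCA1, are close to copies of each other. Their coding sequences of 1692 bases differed at 42 positions, an identity of 97.5%, and shared an identical run of 269 bases. The 60 bases with the most differences, coding positions 663 to 722 counted from the start codon, are shown with the 9 differing bases in capitals, since only reads that cover such bases separate the genes.
KRT6A: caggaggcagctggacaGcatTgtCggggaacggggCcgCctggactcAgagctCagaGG
KRT6B: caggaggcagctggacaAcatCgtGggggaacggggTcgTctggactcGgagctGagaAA
Of all stretches of 100 bases in the KRT6A transcript, 18.2% also occurred in another gene, mostly KRT6C, and for KRT6B the share was 24.6%. How the counting treated such reads is not given in the sources used here, so the split of counts between KRT6A and KRT6B is uncertain. The share was 15.2% for KRT18, all of it with KRT8, and 7.67% for KRT7, all of it with its antisense gene KRT7-AS. The strand setting of the counting is not given either. The longest protein-coding transcripts of KRT8 and KRT19, which were the ones examined, shared no such stretch. Those that KRT18 shared with KRT8 lay in other KRT8 transcripts, so counts of KRT8 may be affected too.

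Both lines transcribed keratins, but different ones. Untreated HCC1937-OE-BRCA1 carried transcripts of all 10 genes, and the libraries labelled HCC1937-EV carried KRT8, KRT18 and KRT7, with few counts of the other members and none of KRT6B. The members together took between 0.978% and 1.26% of all counts in untreated HCC1937-OE-BRCA1 and between 0.31% and 0.331% in the untreated libraries labelled HCC1937-EV. Of the counts on all keratin genes, the members made up 88% ± 0.61 (SD, n = 3) and 98.1% ± 0.0854 (SD, n = 3), respectively. The 5 members that passed the filter on low counts through HCC1937-OE-BRCA1 alone, KRT5, KRT14, KRT6A, KRT6B and KRT19, had to differ between the lines and are described by their levels. Of the other 5, KRT7, KRT8, KRT16, KRT17 and KRT18, all were higher in HCC1937-OE-BRCA1 at 0 h, in a comparison in which 39.4% of the 18335 genes tested were higher and 33.3% lower, 72.7% in all. At 12 h and at 24 h, 4 of these 5 were higher, and KRT18 was the exception both times. The background was 38.8% higher and 34.1% lower at 12 h (72.9% in all) and 39.9% higher and 34% lower at 24 h (73.9% in all), so most genes differed between these lines.

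**Figure D1:**
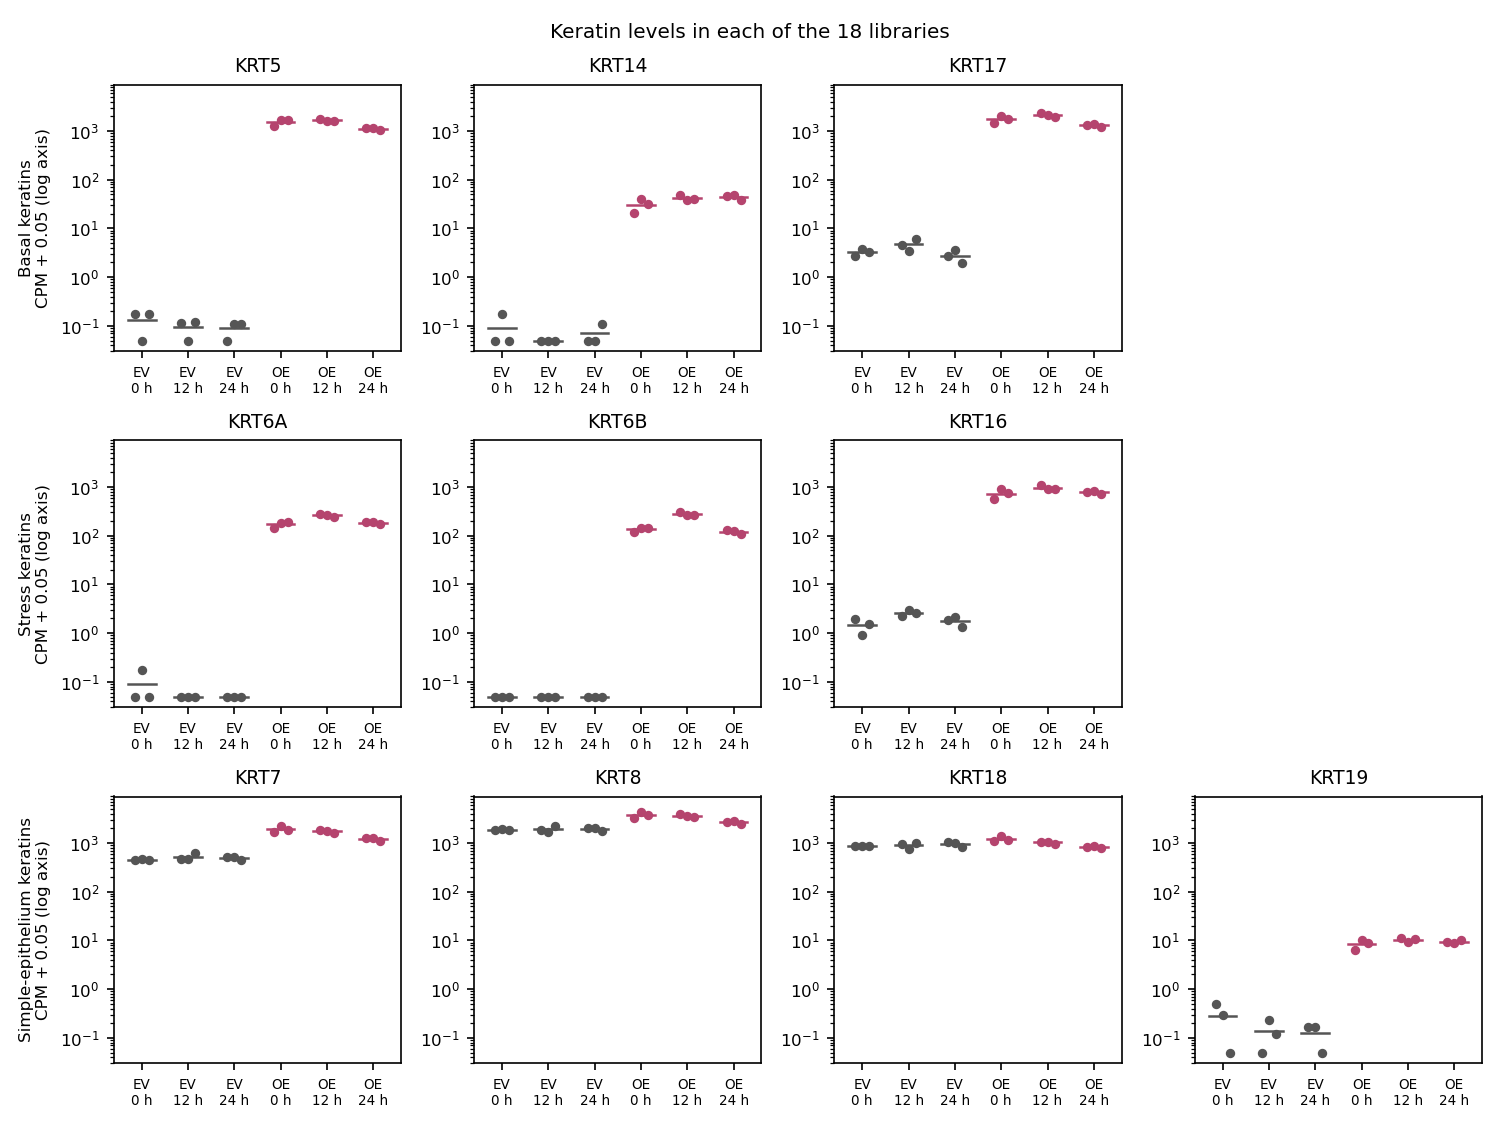
CPM of each keratin in each of the 18 libraries, plotted as CPM + 0.05 on a log axis, for libraries labelled HCC1937-EV (EV, grey) and HCC1937-OE-BRCA1 (OE, red) at 0 h, 12 h and 24 h of olaparib. Points are libraries and bars are means of 3. KRT5, KRT14, KRT6A and KRT6B sit at or near 0 in every EV library, whereas KRT7, KRT8 and KRT18 lie between 441 and 4385 CPM in both lines.

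Among the basal keratins, KRT5, the type II keratin of the basal layer, was at 1267, 1694 and 1688 CPM in untreated HCC1937-OE-BRCA1, at 1742, 1594 and 1594 CPM at 12 h and at 1126, 1161 and 1062 CPM at 24 h. In the libraries labelled HCC1937-EV it had 0 to 2 counts, at most 0.124 CPM. All HCC1937-OE-BRCA1 libraries were thus far above all others, and its 3 libraries at 24 h were below all 6 earlier ones. From the summed counts of untreated libraries, 74877 against 4, the ratio between the lines was 18773-fold, with a 95% interval from 7332 to 68903 that covers counting error only.

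KRT17, a basal type I keratin that is also induced in wounds, was at 1481, 2023 and 1787 CPM in untreated HCC1937-OE-BRCA1, at 2313, 2109 and 1897 CPM at 12 h and at 1323, 1398 and 1229 CPM at 24 h. The libraries labelled HCC1937-EV held between 1.86 and 5.98 CPM, and the ratio of the untreated lines was 548-fold (95% counting interval 469 to 646).

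KRT14, the usual type I partner of KRT5, was far below it. Its levels were 21.0, 39.3 and 31.7 CPM in untreated HCC1937-OE-BRCA1, 48.9, 38.2 and 39.2 CPM at 12 h and 46.4, 48.1 and 39.0 CPM at 24 h, with 0 to 2 counts in each library labelled HCC1937-EV. Per coding length, KRT5 stood 41.8 ± 6.94 times above KRT14 at 0 h, 31.5 ± 2.61 times at 12 h and 20.2 ± 1.41 times at 24 h (SD, n = 3). The 3 ratios at 24 h, from 19.3 to 21.8, lay below every earlier one, and no test was run on the ratio. Its size depends on the length used and was smaller per exonic length. There KRT5 and KRT14 had means of 361.1 and 13.44 CPM per kilobase at 0 h and of 260 and 19.51 at 24 h.

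Among the stress keratins, KRT6A was at 146.1, 183.2 and 190.1 CPM in untreated HCC1937-OE-BRCA1, at 283.1, 261.5 and 247.4 CPM at 12 h and at 189.1, 191.1 and 177.2 CPM at 24 h. KRT6B was at 118.0, 147.0 and 143.2 CPM, then at 300.1, 269.0 and 268.0 CPM, and then at 131.5, 122.2 and 109.4 CPM. For both genes, the 3 libraries at 12 h exceeded the other 6. In the libraries labelled HCC1937-EV, KRT6B had 0 counts in all 9 and KRT6A 2 counts in 1 library, where 3 counts over a condition's 3 libraries would be between 0.0593 and 0.0647 CPM. Against that floor, KRT6B was at least 2198-fold higher in untreated HCC1937-OE-BRCA1.

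KRT16, the type I partner of the KRT6 proteins, was at 561.8, 888.5 and 750.2 CPM in untreated HCC1937-OE-BRCA1, at 1092, 919.4 and 904.6 CPM at 12 h and at 791.4, 809.5 and 716.6 CPM at 24 h. It held between 0.865 and 2.88 CPM in the libraries labelled HCC1937-EV, a ratio of 523-fold at 0 h (95% counting interval 412 to 674). The libraries at 12 h were above those at 0 h and at 24 h, by little over the highest library at 0 h.

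Among the simple-epithelium keratins, KRT8 was the most abundant member by CPM in all 18 libraries. It was at 3241, 4385 and 3771 CPM in untreated HCC1937-OE-BRCA1, at 3903, 3613 and 3407 CPM at 12 h and at 2733, 2807 and 2511 CPM at 24 h, against 1683 to 2182 CPM in the libraries labelled HCC1937-EV. The log2 fold change between the lines was 1.01 ± 0.11 at 0 h, 0.93 ± 0.11 at 12 h and 0.46 ± 0.11 at 24 h (SE, edgeR adjusted p = 6.06e-08, 2.11e-07 and 0.000897).

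KRT18, the type I partner of KRT8, was at 1079, 1407 and 1139 CPM in untreated HCC1937-OE-BRCA1, at 1068, 1069 and 953.1 CPM at 12 h and at 817.1, 866.9 and 771.6 CPM at 24 h. In the libraries labelled HCC1937-EV it was at 868.6, 883.5 and 872.3 CPM at 0 h, at 963.7, 737.5 and 982.0 CPM at 12 h and at 1068, 984.8 and 841.2 CPM at 24 h. It was 1.38-fold higher in HCC1937-OE-BRCA1 at 0 h (log2 fold change 0.47 ± 0.12, adjusted p = 0.00132), and the lines overlapped at both later times. The log2 fold changes were then 0.20 (95% interval -0.03 to 0.43, adjusted p = 0.124) and -0.24 (95% interval -0.47 to -0.01, adjusted p = 0.0741). The second interval leaves out 0 although edgeR's unadjusted p was 0.0566, since these normal intervals run somewhat narrow. At 24 h KRT18 was called lower in HCC1937-OE-BRCA1 when the libraries of that time were fitted alone (adjusted p = 0.0252) or with no filter on low counts (adjusted p = 0.0131).

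KRT7, a type II keratin of glandular ducts, was at 1647, 2187 and 1884 CPM in untreated HCC1937-OE-BRCA1, at 1852, 1734 and 1631 CPM at 12 h and at 1263, 1244 and 1084 CPM at 24 h. The libraries labelled HCC1937-EV were at 441 to 624 CPM, and the ratio of the lines was 4.24-fold at 0 h, 3.35-fold at 12 h and 2.46-fold at 24 h. KRT19, the smallest keratin and a luminal marker, was rare in both lines, at 6.34 to 10.9 CPM in HCC1937-OE-BRCA1 and at 0 to 7 counts in each library labelled HCC1937-EV.

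Compared per coding length, in CPM per kilobase, the levels in untreated HCC1937-OE-BRCA1 ran from KRT8 (2478 ± 374, SD, n = 3) through KRT17 (1361 ± 210), KRT7 (1355 ± 192), KRT18 (937 ± 136), KRT5 (876 ± 138), KRT16 (517 ± 116), KRT6A (102 ± 14), KRT6B (80.4 ± 9.32) and KRT14 (21.6 ± 6.5) to KRT19 (7.09 ± 1.65). KRT17 and KRT7 did not differ beyond their spread, and neither did KRT18 and KRT5. The order of the upper genes depends on which length is used, since per exonic length KRT17 (564 ± 86.7) stood level with KRT8 (552 ± 83.2). In the untreated libraries labelled HCC1937-EV the order per coding length was KRT8 (1230 ± 44.2), KRT18 (678 ± 6.01) and KRT7 (319 ± 7.04), and the next gene, KRT17, was at 2.48 ± 0.45.

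Since type I and type II keratins pair, the balance of their transcripts was computed as the ratio of summed CPM per exonic length. Over the members it was 1.38, 1.44 and 1.39 in the untreated libraries labelled HCC1937-EV and 1.21, 1.16 and 1.23 in untreated HCC1937-OE-BRCA1, and the lines did not overlap. In HCC1937-OE-BRCA1 the ratio was 1.07, 1.09 and 1.14 at 12 h and 1.07, 1.03 and 1.05 at 24 h, all below the 0 h libraries. Over all keratin genes in place of the members, it was 1.06 ± 0.03 at 0 h, 0.94 ± 0.03 at 12 h and 0.86 ± 0.02 at 24 h (SD, n = 3), since KRT15, an abundant type I gene outside the 3 groups, is then included. No test was run on these ratios.

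**Figure D2:**
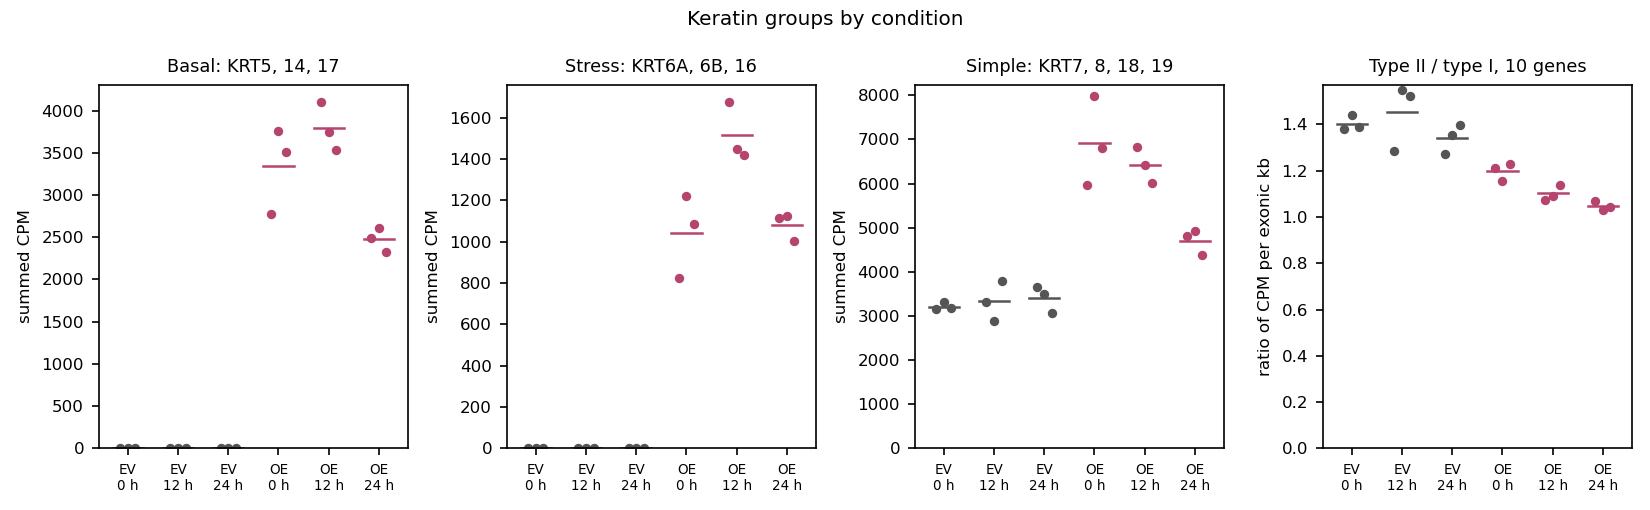
Summed CPM of the basal, stress and simple-epithelium keratins and the ratio of type II to type I members (CPM per exonic kilobase) in each library, by line (EV, libraries labelled HCC1937-EV, and OE, HCC1937-OE-BRCA1) and time. Points are libraries, bars are means of 3 and all axes start at 0. In OE the stress keratins sit highest at 12 h, at 1420 to 1676 CPM, and the simple-epithelium keratins lowest at 24 h, at 4377 to 4927 CPM.

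After 12 h of PARPi treatment, the KRT6 genes were higher in HCC1937-OE-BRCA1 than at 0 h. KRT6B rose 2.05-fold (log2 fold change 1.04 ± 0.11, SE, edgeR adjusted p = 6.22e-05) and KRT6A rose 1.52-fold (0.61 ± 0.12, adjusted p = 0.0101). These were 2 of 10 members called higher and 0 lower, where 1.7% of the 18335 genes tested were higher and 0.605% lower, 2.31% in all. Within the stress group 2 of 3 rose, and the median log2 fold change was 0.61, beside 0.00 over all genes tested. KRT16 was not called (0.41 ± 0.14, adjusted p = 0.191), although its 12 h libraries did not overlap those at 0 h, and it was called with no filter on low counts (adjusted p = 0.0247) and with an offset for GC content and gene length (adjusted p = 0.0102). With the counts of KRT6A, KRT6B and KRT6C summed as 1 gene, the log2 fold change was 0.81. The call of KRT6A was lost without HCC1937-OE-BRCA1 12 h replicate 1 or 2, with adjusted p up to 0.062, and that of KRT6B was kept in each of the 6 fits that left out 1 library.

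None of the 3 basal and 4 simple-epithelium keratins was called at 12 h in HCC1937-OE-BRCA1. Their log2 fold changes were 0.08 ± 0.12 for KRT5, 0.46 ± 0.19 for KRT14, 0.26 ± 0.15 for KRT17, -0.13 ± 0.12 for KRT7, -0.06 ± 0.11 for KRT8, -0.23 ± 0.12 for KRT18 and 0.29 ± 0.25 for KRT19.

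At 24 h the picture in HCC1937-OE-BRCA1 was a different one, with 4 of 10 members lower and 0 higher, where 3.55% of the genes tested were lower and 4.71% higher, 8.26% in all. KRT7 fell to 0.628 of its untreated level (log2 fold change -0.67 ± 0.12, SE, edgeR adjusted p = 0.000943). KRT18 fell to 0.677 (-0.56 ± 0.12, adjusted p = 0.00466), KRT8 to 0.706 (-0.50 ± 0.11, adjusted p = 0.00705) and KRT5 to 0.720 (-0.47 ± 0.12, adjusted p = 0.0175). For each of the 4 genes the 24 h libraries lay below all untreated ones. The simple-epithelium group thus fell in 3 of 4 genes, with a median log2 fold change of -0.53 beside 0.02 over all genes tested.

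The calls of KRT7 and KRT18 were kept when any 1 of the 6 libraries was left out. The call of KRT8 was lost without untreated replicate 2 or 24 h replicate 3 (adjusted p up to 0.0554). The call of KRT5 was lost in 4 of the 6 fits, without untreated replicate 2 or 3 or 24 h replicate 1 or 3 (adjusted p up to 0.0959).

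KRT17 was not called at 24 h (-0.42 ± 0.15, adjusted p = 0.0771), although it was with DESeq2's Wald test (adjusted p = 0.0366) and in 4 other alternatives. KRT14 had a log2 fold change in the opposite direction (0.54 ± 0.19, adjusted p = 0.0944), which was called with an offset for GC content and length (0.70, adjusted p = 0.000915). The stress keratins were back near their untreated level, at 0.10 ± 0.12 for KRT6A, -0.17 ± 0.11 for KRT6B and 0.07 ± 0.14 for KRT16 (adjusted p = 0.675, 0.394 and 0.813).

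**Figure D3:**
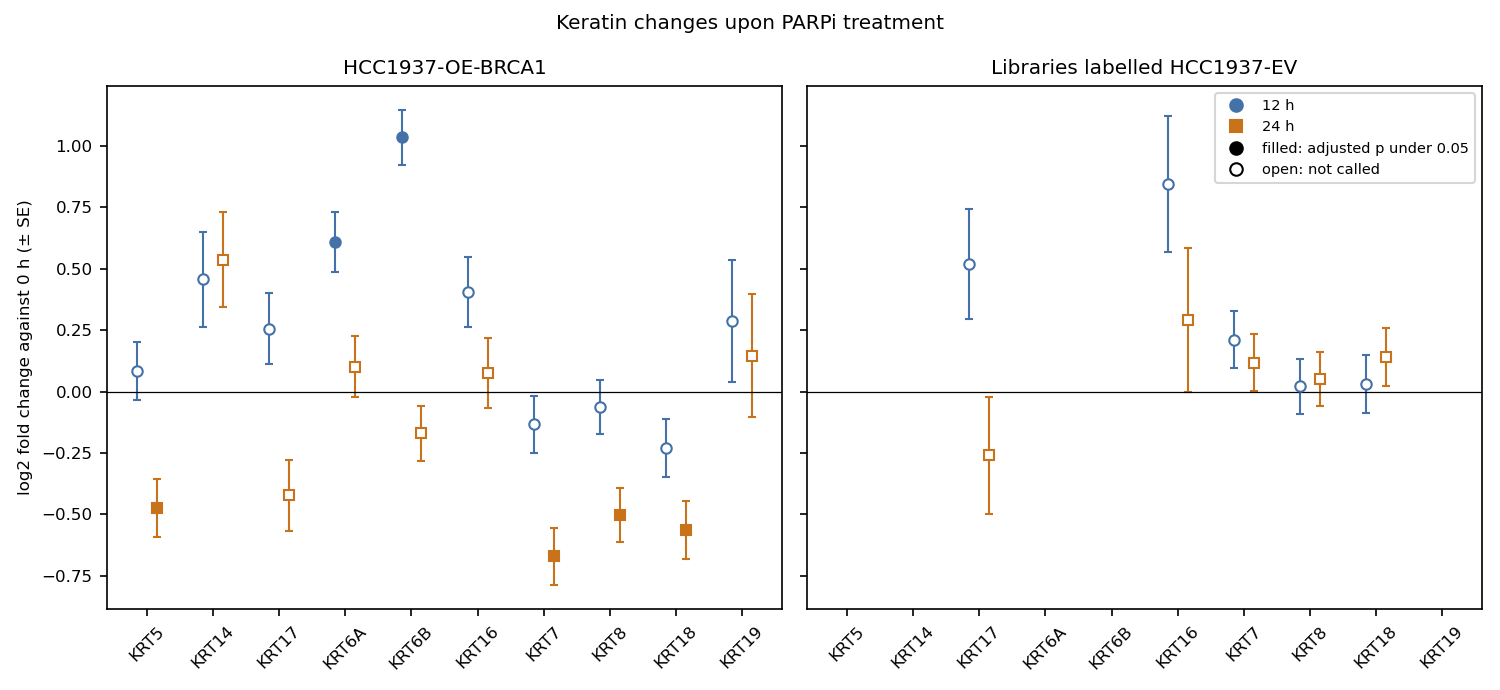
Log2 fold change against 0 h (± SE of the fit) of each keratin at 12 h (circles) and 24 h (squares) of olaparib, in HCC1937-OE-BRCA1 (left) and the libraries labelled HCC1937-EV (right). Filled symbols mark an adjusted p under 0.05. KRT6A and KRT6B are filled at 12 h, KRT5, KRT7, KRT8 and KRT18 are filled at 24 h, and no symbol is filled on the right, where the 5 genes under 1 CPM are left out.

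The step from 12 h to 24 h in HCC1937-OE-BRCA1 was tested directly. KRT6B was lower by 1.21 on the log2 scale (log2 fold change -1.21 ± 0.11, adjusted p = 0.000102), and KRT5 (-0.56), KRT17 (-0.68), KRT6A (-0.51), KRT7 (-0.54) and KRT8 (-0.44) were lower too, with adjusted p between 0.0196 and 0.048. That made 6 of 10 members lower and 0 higher, against 0.862% and 0.791% of all genes tested, 1.65% in all. The call of KRT6B alone was kept in every fit that left out 1 of the 6 libraries. That of KRT17 was kept in 1 of the 6 fits, and those of KRT5, KRT6A, KRT7 and KRT8 in 0. KRT16 and KRT18 both had a log2 fold change of -0.33 and were not called (adjusted p = 0.237 and 0.158).

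Under the EV label, no member was called at 12 h or 24 h in edgeR's test. KRT5, KRT14, KRT6A, KRT6B and KRT19 had at most 7 counts in any library, treated ones included, and a fall from such counts was not detectable at this depth. For the abundant members the intervals were narrow. At 24 h KRT8 had a log2 fold change of 0.05 (95% interval -0.17 to 0.27), KRT18 of 0.14 (-0.09 to 0.37) and KRT7 of 0.12 (-0.11 to 0.35). At 12 h KRT16 had 0.84 ± 0.28 (adjusted p = 0.169) and KRT17 0.52 ± 0.22 (adjusted p = 0.259), at levels under 6 CPM, and KRT16 was called with no filter on low counts (adjusted p = 0.00796). Of all genes tested, 0.0273% were higher and 0.0164% lower at 12 h (0.0436% in all), and 8.62% were higher and 5.12% lower at 24 h (13.7% in all). Between 12 h and 24 h, 0 members were called either way, against 0.136% of genes higher and 0.0436% lower (0.18% in all), and KRT17 had a log2 fold change of -0.78 (adjusted p = 0.243) that was called with DESeq2's Wald test (adjusted p = 0.0429), among other settings. At an unadjusted p under 0.05, edgeR counted 2963 genes at 12 h. With an offset for GC content and length, KRT7 at 24 h turned to -0.23 and was called (adjusted p = 0.039).

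The difference of the 24 h effect between the lines was tested as an interaction, and it was called for KRT7 (-0.79 ± 0.16, adjusted p = 0.00356), KRT18 (-0.70 ± 0.17, adjusted p = 0.00691) and KRT8 (-0.55 ± 0.16, adjusted p = 0.0186). These are 3 of the 5 members measurable in both lines with a lower effect in HCC1937-OE-BRCA1, where 11.2% of the genes tested had a lower and 8.16% a higher one, 19.4% in all. For KRT7 it was not called with the offset for GC content and length (-0.29, adjusted p = 0.0559). For KRT8 it was lost without EV replicate 1 or 3 at 0 h, OE replicate 2 at 0 h or OE replicate 3 at 24 h (adjusted p up to 0.063). No member had a called difference of the 12 h effect, against 0.376% of genes with a higher and 0.142% with a lower one (0.518% in all, and 2690 genes at an unadjusted p under 0.05). KRT6A and KRT6B, which rose in HCC1937-OE-BRCA1, had 0 counts in all treated libraries under the EV label.

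Of the 44 other keratin genes listed, 33 are in the table and 14 were tested. In HCC1937-OE-BRCA1 at 12 h, 5 of the 14 were higher and 0 lower, against 1.7% and 0.605% of all genes tested. KRT15, a type I keratin of basal and progenitor cells, was at 1059, 1267 and 1232 CPM at 0 h, at 1823, 1618 and 1550 CPM at 12 h and at 1599, 1708 and 1507 CPM at 24 h. Both increases were called, with log2 values of 0.49 (12 h, adjusted p = 0.0186) and 0.44 (24 h, adjusted p = 0.0201), so that its 24 h level exceeded that at 0 h while KRT5 was lower. The call was lost without untreated replicate 1 or 12 h replicate 1 or 2 at 12 h, and without 24 h replicate 1 or 2 at 24 h. Neither increase was called when the 2 conditions were fitted alone (adjusted p = 0.0753 and 0.055).

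KRT13, a keratin of stratified mucosa, was at 43.8, 63.3 and 58.1 CPM at 0 h, at 111.8, 96.5 and 99.7 CPM at 12 h and at 60.7, 66.3 and 58.4 CPM at 24 h. It was called higher at 12 h (0.90, adjusted p = 0.00571) and not at 24 h (0.17, adjusted p = 0.632). The hair keratin KRT81 (0.94, adjusted p = 0.0259), and KRT24 and KRT75, which stayed under 8 CPM (1.37 and 1.21, adjusted p = 0.0261 and 0.0487), were also called higher at 12 h. The call of KRT81 was lost without any 1 of the 12 h libraries. Those of KRT24 (adjusted p from 0.052 to 0.105) and KRT75 (from 0.0581 to 0.314) were lost in each of the 6 fits with a library omitted, and that of KRT75 also with a replicate block (adjusted p = 0.0803).

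At 24 h in HCC1937-OE-BRCA1, KRT80 (-0.51, adjusted p = 0.002), KRT10 (-1.06, adjusted p = 0.0244) and KRT75 (-1.69, adjusted p = 0.00923) were lower, 3 of 14 beside 1 higher, KRT15. KRT10, a keratin of differentiating epidermis, was at 19.8, 53.8 and 41.4 CPM at 0 h and at 20.4, 18.1 and 16.6 CPM at 24 h. Its groups overlapped, and its call was lost in every fit with a library omitted except that without untreated replicate 1 (adjusted p up to 0.183). Under the EV label at 24 h, KRT10 was higher (1.10, adjusted p = 0.0163) and KRT80 lower (-0.44, adjusted p = 0.0105), and these were the 2 of 14 called, against 8.62% of all genes higher and 5.12% lower. The call of KRT10 there was lost without EV replicate 1 or 3 at 0 h or replicate 1 at 24 h, and that of KRT80 without EV replicate 1 or 2 at 24 h.

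KRT4, a keratin of mucosa, went from 57.0, 69.9 and 62.5 CPM in untreated HCC1937-OE-BRCA1 to 46.3, 48.5 and 47.9 CPM at 24 h without being called (-0.41, adjusted p = 0.0611), although DESeq2's Wald test called it lower (-0.42, adjusted p = 0.00393). From 12 h to 24 h KRT13 (-0.73, adjusted p = 0.04), KRT75 (-2.90, adjusted p = 0.000855) and KRT81 (-1.57, adjusted p = 0.00136) were lower, 3 of 14, and the call of KRT13 was lost with a replicate block (adjusted p = 0.0526) and in all 6 fits with a library omitted (adjusted p between 0.1 and 0.204). KRT23 (28.1 ± 3.97 CPM in untreated HCC1937-OE-BRCA1, SD, n = 3, and 0 counts under the EV label) and KRT9 (6.81 ± 1.5 against 0.0827 ± 0.0949 CPM) were not called upon treatment in either line. In untreated HCC1937-OE-BRCA1, 12 of 14 were higher and 1 lower, against 39.4% and 33.3% of all genes tested. The 14 include genes that passed the filter on low counts through 1 line alone and had to differ between the lines. The 1 lower gene, the hair keratin KRT83, passed through the libraries labelled HCC1937-EV and is described by its level. It was at 0.0821 ± 0.0941 against 0.577 ± 0.0342 CPM, with 0 to 6 counts in any HCC1937-OE-BRCA1 library.

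**Figure D4:**
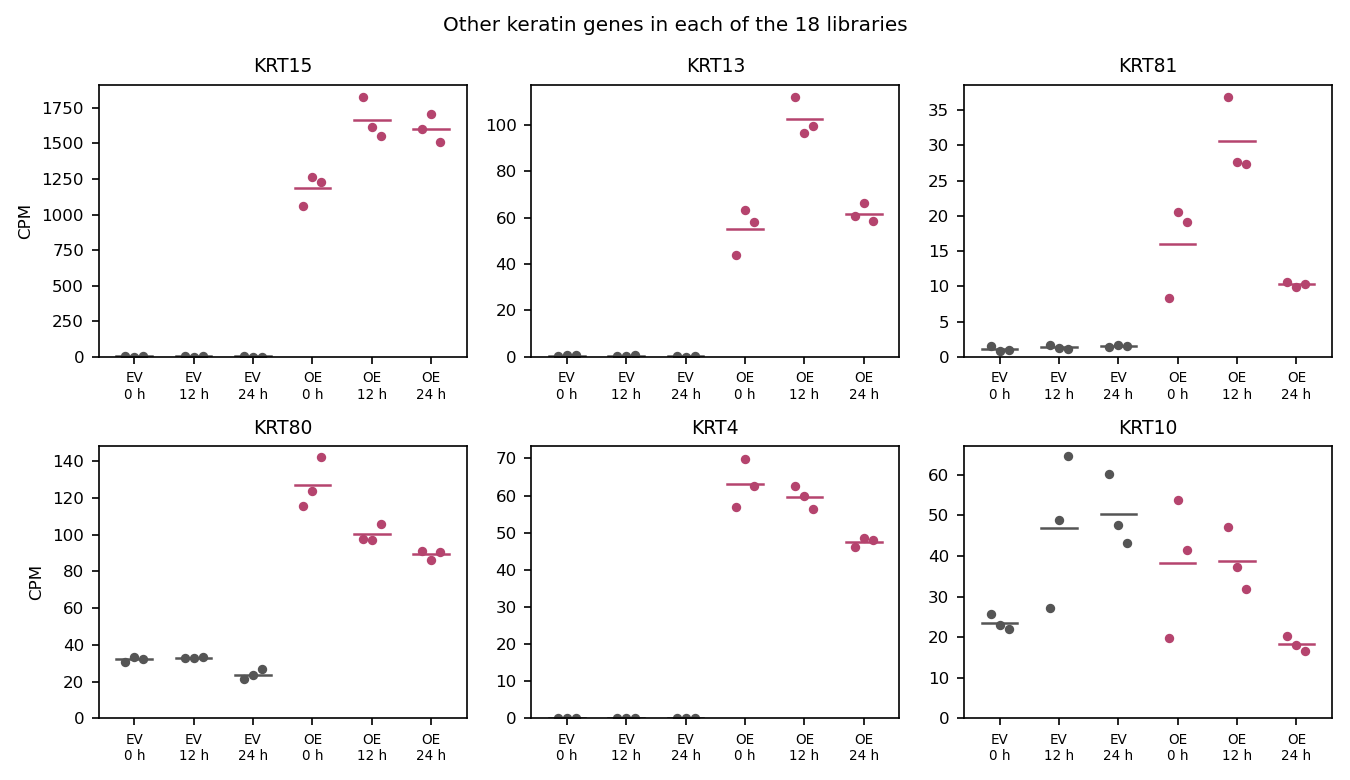
CPM (linear axes from 0) of 6 keratin genes outside the 3 groups in each of the 18 libraries, by line (EV, libraries labelled HCC1937-EV, and OE, HCC1937-OE-BRCA1) and time. Points are libraries and bars are means of 3. KRT15 stays above its untreated level in OE at 24 h, at 1507 to 1708 CPM, KRT13 and KRT81 peak at 12 h, and KRT10 is low in all OE libraries at 24 h.

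Genes that anchor keratin filaments were described next, as a list of 22 desmosome, hemidesmosome and plakin genes of which 20 were tested. In untreated HCC1937-OE-BRCA1, 15 of 20 were higher and 1 lower than in the libraries labelled HCC1937-EV, against 39.4% and 33.3% of all genes tested. Like the counts between the lines for the 2 lists that follow, this one includes genes that passed the filter through 1 line alone. The desmosome genes PKP1 (225.7 ± 18.1 CPM, SD, n = 3), DSC3 (187.3 ± 41.9 CPM) and DSG3 (54.4 ± 8.82 CPM) had 0 counts in the 3 untreated libraries labelled HCC1937-EV, and ITGB4, a hemidesmosome integrin, was at 313 ± 58.3 against 1.88 ± 0.338 CPM. At 24 h in HCC1937-OE-BRCA1, 4 of 20 were higher and 2 lower (4.71% and 3.55% of all genes), with a median log2 fold change of 0.11 beside 0.02 over all genes. Among them ITGA6, the partner of ITGB4 (0.51, adjusted p = 0.00734), and DSG3 (0.51, adjusted p = 0.0261) rose. At 12 h, 2 were higher and 2 lower (1.7% and 0.605% of all genes). In the libraries labelled HCC1937-EV, 0 of 20 were called at 12 h and 3 higher and 2 lower at 24 h (8.62% and 5.12% of all genes), with ITGA6 lower (-0.44, adjusted p = 0.0204) and the hemidesmosome collagen gene COL17A1 higher (0.48, adjusted p = 0.0438).

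Of 9 tested genes of other intermediate filaments, 4 were higher and 5 lower in untreated HCC1937-OE-BRCA1, where 39.4% and 33.3% of all genes were. VIM, the filament protein of mesenchymal cells, was at 1.05 ± 0.273 CPM against 306 ± 25.3 CPM in the libraries labelled HCC1937-EV, and the neurofilament gene NEFH had 1 count against 2097. INA went the other way, with 513 counts against 0, and DES had 0 against 49. Upon treatment, 0 of 9 were called at 12 h in either line and 1 was higher and 1 lower at 24 h in each, where the background was 4.71% and 3.55% in HCC1937-OE-BRCA1 and 8.62% and 5.12% under the EV label. In HCC1937-OE-BRCA1 these were SYNM (0.68, adjusted p = 0.000693) and the lamin gene LMNB2 (-0.57, adjusted p = 0.00177), and in the libraries labelled HCC1937-EV they were NES (0.67, adjusted p = 0.00152) and NEFH (-0.44, adjusted p = 0.0432).

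Of 20 transcription factors listed for the epithelial lineage, 14 were higher and 3 lower in untreated HCC1937-OE-BRCA1, against 39.4% and 33.3% of all genes tested. The list was not split by whether a factor activates or represses epithelial genes. EHF (119.2 ± 19.6 CPM) and OVOL2 (17.1 ± 4.68 CPM) had 0 counts in the untreated libraries labelled HCC1937-EV, while GRHL2 (116 ± 8.61 CPM) had 4 counts and SOX9 (148.3 ± 17.5 CPM) 1 count there. At 24 h in HCC1937-OE-BRCA1, 4 of 20 were higher and 1 lower (4.71% and 3.55% of all genes). TP63, which directs the basal programme and activates KRT5 and KRT14 in stratified epithelium, rose from 42.8 ± 4.30 to 71.3 ± 3.59 CPM (log2 fold change 0.74 ± 0.15, adjusted p = 0.0042). KRT5 was lower (-0.47, called in 2 of 6 fits that left out 1 library), and KRT14 had a positive value that was not called (0.54, edgeR adjusted p = 0.0944). OVOL2 fell (-0.79, adjusted p = 0.0305). In the libraries labelled HCC1937-EV, GRHL1 (-0.43, adjusted p = 0.0168) and KLF5 (-0.33, adjusted p = 0.0472) were the 2 called at 24 h, both lower (5.12% of all genes). At 12 h 0 of 20 were called in either line.

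Likeness to the keratin groups was described by the correlation of log2 CPM, centred on the mean of each line, over the 18 libraries and among 12314 genes with at least 1 CPM in both lines. The genes most like the mean of the basal keratins were SLC1A5, a glutamine transporter (r = 0.857), TSPAN33 (0.854) and CHAC1 (0.845). ZIC2 (0.901), STIM1 (0.871) and MFSD12 (0.869) were most like the stress keratins, and SRM, the spermidine synthase (0.910), COTL1 (0.909) and ZNF777 (0.906) most like the simple-epithelium keratins. In the libraries labelled HCC1937-EV, KRT5, KRT14, KRT6A, KRT6B and KRT19 had few or no counts, so the group means there rest on the remaining members and on counting noise. Over the 9 HCC1937-OE-BRCA1 libraries alone, r of the genes named was 0.892 to 0.938 for the basal, 0.905 to 0.978 for the stress and 0.947 to 0.964 for the simple-epithelium keratins. Libraries of 1 condition share their treatment and depth, so these values are descriptions without a test.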

How the data were processed

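RNA was sequenced from 18 libraries, 3 for each of 2 cell lines at 0, 12 and 24 h of olaparib, grouped by the sample titles. The values deposited by the authors are unnormalised counts of reads for 35044 genes. The submitters' processing notes name HISAT2, featureCounts, DESeq2 and GRCh38 without versions or strand setting. Totals per library lay between 15081973 and 17571922 counts, and every floor or interval from counts covers counting error only.

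Counts were tested with edgeR 4.0.16 in R 4.3.3: TMM library sizes, filterByExpr by condition, the quasi-likelihood test on a model with 1 mean per condition over all 18 libraries, and Benjamini-Hochberg adjustment over 18335 genes, with calls at an adjusted p under 0.05. CPM use TMM library sizes. Intervals of log2 fold changes are 95% normal intervals from the SE, which do not allow for the test's degrees of freedom and run somewhat narrow. Gene positions, lengths and sequences came from the GRCh38 annotation. The fits were tested on simulated data with known changes. The replicate numbers did not pair the samples.

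Members and lists (other keratins, anchoring genes, other filament genes, transcription factors, cell type markers) were chosen with earlier results of these data known. The text names the members, BRCA1, other keratins of at least 1 CPM in a condition, the genes with the largest called changes of each list and the 3 genes most like each keratin group. The cell type markers named come from the marker lists, of which 1 gene is not reported here. Alternatives were DESeq2's size factors and its Wald test (DESeq2 1.42.0), no filter or at least 10 counts in every library, a log2 fold change over 1, the compared conditions alone, a replicate block, an offset for GC content and length (mgcv 1.9.3), summed near-identical copies and each library left out. Fits of 1 line alone and 2 variants of the type II to type I balance were added after seeing the data.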

Additional observations from a re-analysis of the deposited data

Results flagged for a closer look

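For 6 keratin genes, the change at 24 h of olaparib differed between the lines by an interaction term in edgeR's quasi-likelihood test (adjusted p over 18335 genes, of which 19.4% were called). Of the 10 members tested 3 were lower, and of the 14 other keratin genes tested 1 was higher and 2 lower. Of all genes tested, 8.16% were higher and 11.2% lower. The share of keratins called in either direction was thus not far above that of all genes. These counts include keratins with few or no counts under the EV label, for which a difference was hardly detectable. The 3 members called were among 5 with a mean of at least 1 CPM in a condition under that label. The other called keratins were among 6 such genes. The genes are listed 1 by 1. For KRT7 the difference, HCC1937-OE-BRCA1 minus the libraries labelled HCC1937-EV, was -0.79 on the log2 scale, for KRT18 it was -0.70 and for KRT8 -0.55. In each case the gene fell in HCC1937-OE-BRCA1 and was not called in the other line. For KRT10 the difference was -2.16 (adjusted p = 0.00183), with opposite called directions in the lines, from 38.3 to 18.3 CPM in HCC1937-OE-BRCA1 and from 23.6 to 50.4 CPM in the libraries labelled HCC1937-EV. With 1 library left out, the fall was called in 1 of 6 fits, and its groups overlapped. The rise was called in 3 of 6 fits. The difference itself was called in each of the 12 fits that left out 1 library. For KRT15 the difference was 0.65 (adjusted p = 0.0481), and it was called in 1 of those 12 fits. For KRT86, at under 4 CPM in every library, it was -1.13 (adjusted p = 0.0491), called in 2 of those 12 fits. Since the lines differ in their epithelial markers, these differences and an effect of BRCA1 cannot be told apart.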

How the results depend on the processing

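Under settings other than leaving out a library, 909 log2 fold changes kept their direction and their side of the threshold, 34 newly passed it, 17 no longer passed it and 26 reversed, all 26 of values that were not called. With the offset for GC content and length, without and with the replicate block, log2 fold changes in the libraries labelled HCC1937-EV turned to -0.01329 and -0.01244 for KRT7, -0.01112 and -0.009003 for KRT8 and -0.1023 and -0.1041 for KRT18 at 12 h. At 24 h they turned to -0.07082 and -0.07423 for KRT16, -0.2334 and -0.234 for KRT7, -0.06897 and -0.07196 for KRT8 and -0.07534 and -0.07853 for KRT18, and from 12 h to 24 h to -0.05784 and -0.06295 for KRT8. In HCC1937-OE-BRCA1 they turned to 0.07285 and 0.07238 for KRT19 from 12 h to 24 h, and to -0.0005074 for KRT10 at 12 h without the block. The interaction at 24 h turned to 0.1908 and 0.1945 for KRT17, 0.3063 and 0.3114 for KRT16 and 0.1723 and 0.1749 for KRT80. Summing KRT6A, KRT6B and KRT6C turned the 24 h value of HCC1937-OE-BRCA1 to -0.01015. The cause was not tested.

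Counts of called members moved as follows. Under the EV label, 1 member was higher at 12 h with no filter, 1 lower at 24 h with either offset, and 1 lower from 12 h to 24 h with DESeq2's Wald test, no filter or either offset. In HCC1937-OE-BRCA1 at 12 h, 0 were higher with at least 10 counts in every library, which removes KRT6A and KRT6B, and 1 with a log2 fold change over 1. At 24 h, 1 was higher with no filter or either offset, and 0 were lower with a log2 fold change over 1. From 12 h to 24 h, 3 were lower with at least 10 counts and 1 with a log2 fold change over 1, against 6. Between the lines, at least 10 counts left 5, 5 and 4 higher at 0, 12 and 24 h, since it removes the members near 0. The 5 at 12 h include KRT18, which the main fit did not call at that time. At 24 h, 1 was lower with no filter or the 2 conditions alone. The interaction at 24 h had 0 lower with a log2 fold change over 1. With coding lengths the type II to type I balance was 2.27, 2.33 and 2.16 under the EV label and 1.72, 1.55 and 1.53 in HCC1937-OE-BRCA1 at 0, 12 and 24 h. With exonic lengths over all keratins it was 1.27 at 24 h under the EV label and 1.06, 0.941 and 0.858 in HCC1937-OE-BRCA1.

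The replicate numbers did not pair the libraries: 11 of 45 same-numbered pairs correlated above 0.1 and 7 of 18 libraries correlated best with their own number. With the replicate block, members called lower from 12 h to 24 h in HCC1937-OE-BRCA1 were 4 in place of 6, with KRT6A at -0.51 (adjusted p = 0.0644) and KRT8 at -0.44 (adjusted p = 0.0575).

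Leaving out 1 library at a time gave ranges that crossed 0 for these log2 fold changes, none of them called. Under the EV label at 12 h they were -0.08982 to 0.1005 for KRT8 and -0.04666 to 0.1482 for KRT18, and from 12 h to 24 h -0.1777 to 0.06345 for KRT7, -0.06513 to 0.138 for KRT8 and -0.022 to 0.1957 for KRT18. In HCC1937-OE-BRCA1 at 12 h they were -0.04714 to 0.1548 for KRT5, -0.1697 to 0.05558 for KRT8, -0.3045 to 0.3428 for KRT10 and -0.07919 to 0.4272 for KRT86. At 24 h they were -0.008121 to 0.1739 for KRT6A, -0.08638 to 0.236 for KRT16, -0.02795 to 0.301 for KRT19 and -0.2786 to 0.4394 for KRT24. The interaction ranged from -0.1887 to 0.03301 for KRT8 at 12 h, and at 24 h from -0.3638 to 0.07164 for KRT17, -0.4718 to 0.03327 for KRT16 and -0.1508 to 0.02478 for KRT80. Members called in HCC1937-OE-BRCA1 ranged from 1 to 3 higher at 12 h, from 0 to 1 higher and 2 to 5 lower at 24 h and from 1 to 2 lower from 12 h to 24 h, and members lower than under the EV label at 24 h from 0 to 1.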
